A study of Mus musculus with 6 samples.

Results

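Integrins are paired cell surface receptors, and the genes of 10 of their subunits were followed through osteoclast formation in 6 mouse RNA-seq libraries. The members were taken by gene symbol from the deposited expression table, from a list drawn up with earlier results of these data known. They are Itgav, Itgb3, Itgb5, Itgb1, Itga4, Itgb2, Itgal, Itgam, Itgax and Itgb7. All 10 were found among the 24940 genes of the table, and all 10 passed the filter on low values that kept 11595 genes. Bone marrow cells of C57BL/6 mice aged 6 to 8 weeks, as the labels have it, were grown with M-CSF into bone marrow-derived macrophages (BMMs), the precursors of osteoclasts, whereas the methods of the study name ICR mice. All cultures were then kept for 3 days with M-CSF at 30 ng/mL. The no RANKL group (-R) received M-CSF alone, the RANKL group (+R) also received RANKL at 100 ng/mL, and the RANKL + LE group (R+LE) received RANKL at 100 ng/mL together with LE, the methanol extract of leaves of the shrub Abeliophyllum distichum, at 10 μg/mL. RANKL is the cytokine that turns these precursors into osteoclasts, so -R against +R shows the change with differentiation and +R against R+LE the change with the extract. Each group had 2 libraries, and nothing in the labels says that they came from separate animals or cultures, so p-values measure the spread between libraries, which may be technical.

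An integrin is made of 1 alpha and 1 beta chain, and the beta chain sets much of what it binds and signals. Integrin αvβ3, from Itgav and Itgb3, is the receptor by which an osteoclast holds on to bone matrix proteins such as osteopontin and vitronectin and organizes its sealing zone, while αvβ5, from Itgav and Itgb5, is its relative on precursors. Among the members, the β2 integrins of leukocytes combine the product of Itgb2 with that of Itgal (LFA-1), Itgam (Mac-1, the complement receptor 3) or Itgax (CD11c, the complement receptor 4). Itga4 encodes the α4 chain, which pairs with β1 or β7, and Itgb1 encodes the β1 chain, which has the largest number of alpha partners.

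Values are reads scaled to the length of 1 transcript per gene in kilobases and to the number of mapped reads (RPKM). Comparisons between genes on this scale rest on those lengths, and which transcripts the cells used was not checked. The steps between low RPKM values gave whole reads and with them between 29390167 and 34846366 mapped reads per library. The libraries carried the markers of their labels. The summed RPKM of 5 macrophage markers was 1326 to 1431 in -R, 713 to 801 in +R and 598 to 752 in R+LE. That of 6 osteoclast markers was 36.6 to 37.7, 960.2 to 1165 and 184 to 233, most of it from Acp5 (964 and 795 in +R). Single macrophage markers differed from their sum. Fcgr1 fell from 68.3 and 69.2 RPKM in -R to 1.51 and 1.77 in +R. In R+LE Adgre1 was 163 and 133 against 113 and 91.5 in +R, and Cd68 376 and 297 against 468 and 422. Of the genes that mark other cells, 4 B cell markers summed to at most 0.960 RPKM in any library and 5 T and NK cell markers to at most 0.240 RPKM, with Cd3e at 0 reads in all 6. The 3 mast cell and basophil markers had at most 2 reads in any library. Neutrophil markers (5 genes) summed to 15.2 to 16.9 RPKM in -R against 0.509 to 2.53 RPKM in the other 4 libraries, and dendritic cell markers (4 genes) were 1.36 to 1.61 in -R, 0.785 to 1.18 in +R and 0.266 to 0.302 in R+LE. Platelet markers (4 genes) were 119.9 to 124.1, 5.98 to 8.75 and 12.8 to 18.4, nearly all of it from Pf4, while Gp9 had at most 3 reads. Stromal and osteoblast markers (5 genes) were 14.7 to 16.0, 9.61 to 13.7 and 7.89 to 9.40. The part of such cells in the changes below was not tested. In bulk libraries, fewer cells of a type and less RNA per cell cannot be told apart.

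RANKL moved both vitronectin receptor beta chains, in opposite directions. Itgb3 rose from a mean of 0.193 to 33.3 RPKM while Itgb5 fell from 84.1 to 20.4 RPKM, and with LE each stood between the other 2 groups. Among the leukocyte chains, Itgb2 and Itgal fell with RANKL by less than 2-fold, Itgax rose, and Itgb7 fell by more than 2-fold. A gene passed at an adjusted p under 0.05 in limma over all 11595 genes, and was called when its fold change, taken on log2(RPKM + 0.5), was also at least 2. Between +R and -R, 4 members passed as higher, against 23.9% of all tested genes, and 4 passed as lower, against 21.5%. Of these, 3 were called higher, namely Itgb3, Itga4 and Itgax, where the share of all genes was 6.58%, and 2 were called lower, namely Itgb5 and Itgb7, where it was 8.92%. Itgb3 met the filter only through the groups given RANKL, so its calls as higher than -R were not independent of the filter. With LE, 3 members passed as higher than in +R (5.19% of all genes) and 3 as lower (6.86%), with Itgal the member called higher (1.46%) and Itgb3 the member called lower (1.78%). The number called with LE was 1 without R+LE replicate 1 and 4, with Itgb5 and Itgb7 added, without R+LE replicate 2. Between R+LE and -R, 4 passed as higher (15.3%) and 1 as lower (19.0%), with Itgb3 and Itga4 called higher (3.92%) and Itgb5 called lower (6.36%). The median log2 fold change of the 10 members was 0.18, 0.09 and 0.32 in the same order, beside 0.05, -0.05 and -0.01 over all tested genes. The libraries of the compared groups lay apart for 9 of 10 members in each comparison, against 75.2%, 49.0% and 65.5% of all tested genes, and the count of members is to be read against these shares. The comparisons share libraries, so that a high value in +R would appear both as a rise with RANKL and as a fall with LE.

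**Figure D1:**
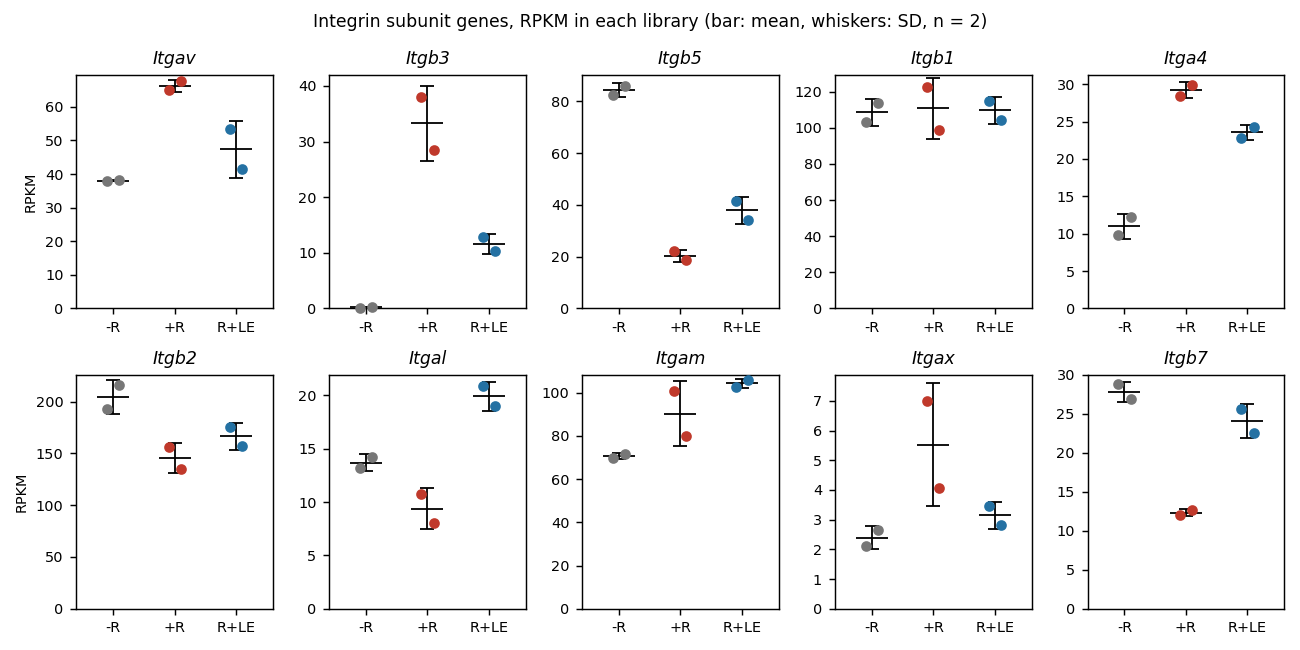
RPKM of the 10 integrin subunit genes (y axis, linear from 0, own scale in each panel) in the 2 libraries of -R, +R and R+LE (x axis). Points are libraries, the horizontal bar is the mean and the whiskers are the SD (n = 2). Itgb3 lies between 0.171 and 0.214 in -R and between 28.4 and 38.1 in +R, Itgb5 has the reverse order, and Itgb1 stays near 110 in all groups.

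The αv receptors are taken first. Itgb3 (transcript NM_016780) lies on chromosome 11 of mm10 from 104608000 to 104670471 on the plus strand. The -R libraries had 0.171 and 0.214 RPKM, against 38.1 and 28.4 in +R, then 12.9 and 10.3 in R+LE. The 3 groups did not overlap, with -R lowest and +R highest. The -R values rested on 29 and 43 reads, against 1814 to 6734 reads in the other 4 libraries, so the gene passed the filter only through the groups given RANKL. Itga2b, the αIIb chain that pairs with β3 on platelets, had at most 7 reads in any library. The ratio of mean RPKM was 173-fold between +R and -R, which the log2(RPKM + 0.5) scale compresses to 5.59 (standard error, SE, 0.16, adjusted p = 1.93e-12). With LE it fell by 1.47 on the log2 scale (adjusted p = 2.5e-05), a mean RPKM 2.86-fold lower than in +R. It nevertheless remained 60.3-fold above -R (log2 fold change 4.12, adjusted p = 8.98e-11). How much of the RANKL rise LE took away therefore depends on the scale, being 26.3% of the log2 rise (23.6% and 29.0% in the 2 R+LE libraries) and 65.5% of the rise in linear RPKM.

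Itgav, which encodes the αv chain shared by both receptors, lies on chromosome 2 from 83724397 to 83806917. It was already abundant without RANKL, at 38.0 and 38.2 RPKM, and stood at 64.9 and 67.6 in +R and at 53.3 and 41.4 in R+LE. Both R+LE libraries lay between the other groups, and they differed from each other by more than those of -R or +R did. On the log2 scale it rose with RANKL by 0.79 (SE 0.15, adjusted p = 0.000585). With LE the gene fell by 0.49 on the log2 scale (adjusted p = 0.0485), close to the threshold. Without R+LE replicate 2 that change was -0.31 (adjusted p = 0.21), and with any of the other libraries left out except R+LE replicate 1 it did not pass either, although the direction was kept. Between R+LE and -R the log2 fold change was 0.30, with a 95% interval from -0.02 to 0.62 (adjusted p = 0.145). It was 0.12 without R+LE replicate 1, and it passed at 0.48 without R+LE replicate 2 (adjusted p = 0.0144), at 0.35 with median centring (adjusted p = 0.0399) and at 0.42 with quantile normalization (adjusted p = 0.00834). GENCODE places 634 of its 10744 exon bases under exons of Gm13684 on the opposite strand, which the counting without strand could not separate.

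Itgb5, on chromosome 16 from 33829665 to 33949338, moved the other way. It was 82.2 and 86.1 RPKM in -R, 22.0 and 18.7 in +R, then 41.6 and 34.3 in R+LE, again without overlap between groups. Mean RPKM was 4.13-fold lower in +R than in -R, and the log2 fold change was -2.02 (SE 0.15, adjusted p = 3.73e-08). With LE it rose by a log2 fold change of 0.88 (adjusted p = 0.00111), short of 2-fold, and stayed 2.22-fold below -R (log2 fold change -1.15, adjusted p = 2.69e-05). The rise was past 2-fold without R+LE replicate 2, at 1.02. Relative to each other, Itgb5 stood at 481 and 402 times the RPKM of Itgb3 in the -R libraries, at 0.579 and 0.657 times in +R, and at 3.22 and 3.31 times in R+LE. Itgb3 thus exceeded Itgb5 in both +R libraries, and Itgb5 exceeded Itgb3 in the other 4.

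Itgb1, on chromosome 8 from 128685654 to 128733579, was the member with the smallest differences between groups. Its RPKM was 103 and 114 in -R, 123 and 98.7 in +R, then 115 and 104 in R+LE, and the groups overlapped in all 3 comparisons. The log2 fold change was 0.02 with RANKL (95% interval from -0.32 to 0.36, adjusted p = 0.921) and -0.01 with LE (95% interval from -0.35 to 0.33, adjusted p = 0.986). Changes up to the ends of these intervals, about 0.36 on the log2 scale, remain possible with 2 libraries a group, although 12661 to 16581 reads lay on the gene. The sign turned when single libraries were left out, between -0.13 and 0.18 with RANKL and between -0.17 and 0.15 with LE.

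Both partners of the α4β7 integrin changed with RANKL, and in opposite directions. Itga4 (chromosome 2, 79255426 to 79333114, plus strand) was at 9.76 and 12.2 RPKM in -R, 28.4 and 29.9 in +R, then 22.9 and 24.2 in R+LE. All libraries with RANKL stood well above -R, and R+LE lay a little under +R without overlap. The log2 fold change was 1.38 with RANKL (SE 0.14, adjusted p = 1.62e-06) and -0.30 with LE (95% interval from -0.61 to 0.01, adjusted p = 0.223), and R+LE stayed above -R by 1.08 (adjusted p = 3.25e-05), or by 0.92 without -R replicate 1. Exons of Cerkl on the opposite strand share 1124 of the 13978 exon bases of Itga4, and Cerkl itself was between 1.27 and 2.54 RPKM. Itgb7, the gene of the β7 chain (chromosome 15, 102215995 to 102231935, minus strand), was 28.8 and 26.9 RPKM in -R, 12.0 and 12.7 in +R, then 25.6 and 22.5 in R+LE. Mean RPKM was 2.26-fold lower in +R than in -R (log2 fold change -1.14, adjusted p = 6.86e-06) and rose again with LE by a log2 fold change of 0.93 (adjusted p = 0.000317), or 1.02 without R+LE replicate 2. The R+LE libraries lay just under those of -R, with a difference of -0.21 whose 95% interval ran from -0.50 to 0.08 (adjusted p = 0.263). Without RANKL Itgb7 had 2.95 and 2.21 times the RPKM of Itga4, in +R 0.423 and 0.424 times, and in R+LE 1.12 and 0.929 times.

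The β2 chain was the most abundant subunit in every library. Itgb2 (chromosome 10, 77530348 to 77565674, plus strand) was at 193 and 216 RPKM in -R, 156 and 135 in +R, then 176 and 157 in R+LE. Both +R libraries lay below both -R libraries, and the R+LE libraries lay between. With RANKL its log2 fold change was -0.49 (SE 0.16, adjusted p = 0.0209). It did not pass without -R replicate 1 (adjusted p = 0.0806), without -R replicate 2 (adjusted p = 0.19) or without +R replicate 2 (adjusted p = 0.221). With LE the log2 fold change was 0.20 (95% interval from -0.15 to 0.54, adjusted p = 0.544). Between R+LE and -R it was -0.30 (95% interval from -0.64 to 0.05, adjusted p = 0.175). Neither a return to the level of -R nor its absence was thus detectable.

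The 3 alpha partners of β2 among the members lie on chromosome 7, with 727502 bases between Itgal and Itgam, and each had a pattern of its own. Itgal, from 127296260 to 127335137, encodes the αL chain of LFA-1, which binds ICAM-1. It was 13.1 and 14.2 RPKM in -R, 10.7 and 8.02 in +R, then 20.8 and 19.0 in R+LE. The R+LE libraries were the highest of all and the +R libraries the lowest. The gene fell with RANKL by 0.54 on the log2 scale (adjusted p = 0.00988), and did not pass without -R replicate 2 (adjusted p = 0.0921) or without +R replicate 2 (log2 fold change -0.34, adjusted p = 0.191). With LE it rose by a log2 fold change of 1.06 (SE 0.15, adjusted p = 0.000284), or 0.86 without +R replicate 2 and 0.99 without R+LE replicate 1. It exceeded -R by a log2 fold change of 0.52 (adjusted p = 0.0158), which did not pass without either -R library or without R+LE replicate 1, with adjusted p from 0.0637 to 0.137.

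Itgam, from 128062640 to 128118491, encodes the αM chain, known as CD11b and used as a marker of myeloid cells. Its RPKM was 69.6 and 71.4 in -R, 101 and 79.7 in +R, then 103 and 106 in R+LE. All 4 libraries with RANKL were above -R, while the +R libraries were spread widely. The log2 fold change with RANKL was 0.34 (95% interval from 0.01 to 0.68, adjusted p = 0.0847) and that with LE was 0.22 (adjusted p = 0.469), while R+LE exceeded -R by 0.56 (adjusted p = 0.0114). This last difference did not pass without -R replicate 1 (adjusted p = 0.114) or without -R replicate 2 (adjusted p = 0.0879). In GENCODE, 3450 of its 5024 exon bases also belong to Gm49368, a gene model on the same strand that has no row of its own in the table.

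Itgax follows Itgam by 11076 bases on the same strand, from 128129568 to 128150657, and encodes the αX chain, known as CD11c, a marker of dendritic cells that macrophages also carry. It was the least abundant member in +R and R+LE, at 6.99 and 4.06 RPKM in +R and 3.47 and 2.82 in R+LE, against 2.11 and 2.67 in -R. The groups did not overlap, though +R replicate 1 stood far above +R replicate 2. The log2 fold change with RANKL was 1.02 (SE 0.21, adjusted p = 0.000881), and fell below 2-fold without +R replicate 1 (0.67) and without -R replicate 1 (0.88). With LE it fell by 0.69 on the log2 scale (adjusted p = 0.0422), a change that did not pass without +R replicate 1 (-0.33, adjusted p = 0.499), without either -R library or without R+LE replicate 2, and that reached -1.05 without +R replicate 2. Between R+LE and -R it was 0.34 (95% interval from -0.11 to 0.78, adjusted p = 0.232). Of the 4 dendritic cell markers, Zbtb46 was 0.0850 and 0.0860 RPKM in -R, 0.714 and 0.941 in +R, then 0.0790 and 0.213 in R+LE. The other 3 were lower in both +R libraries than in either -R library, with Siglech at 0.715 and 1.10 RPKM in -R against 0.0270 in each +R library, Flt3 at 0.281 and 0.206 against 0 and 0.0180, and Xcr1 at 0.283 and 0.219 against 0.0440 and 0.190. The part of these cells in the values of Itgax was not tested.

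**Figure D2:**
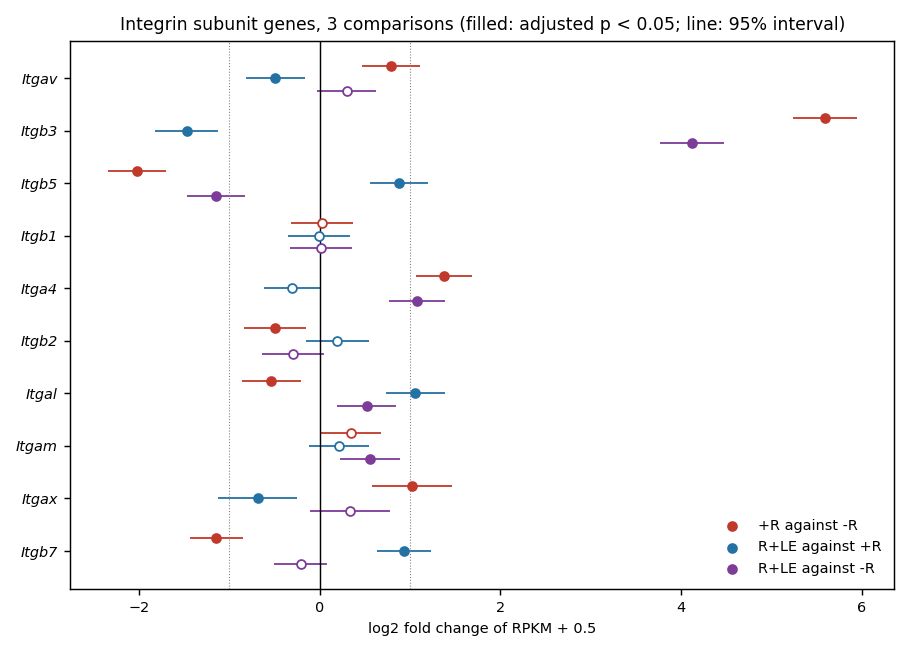
Log2 fold change of RPKM + 0.5 (x axis) for each integrin subunit gene (y axis) in the 3 comparisons. Dots are limma estimates from 6 libraries, filled where the adjusted p is under 0.05, lines are 95% intervals, and dotted lines mark 2-fold. Itgb3 at 5.59 and Itgb5 at -2.02 lie at the 2 ends with RANKL, and the 6 members that passed with both RANKL and LE (Itgb3, Itgb5, Itgb7, Itgal, Itgav and Itgax) have their LE dots on the other side of 0, in comparisons that share the +R libraries.

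To show the start regions of the members called with RANKL, RefSeq promoters on GRCm38.p6, the assembly of mm10, are given where the sequences used here hold one. Of the 10 members 7 have an entry, and of the 5 called members these are Itga4, Itgax, Itgb5 and Itgb7. Each runs 5′ to 3′ on the strand of its gene from 250 bases before the start to 50 bases after it, at chr2:79255176-79255475, chr7:128129300-128129599, chr16:33829415-33829714 and chr15:102231886-102232185, the last on the minus strand. Capitals mark matches on either strand to the core of PU.1 (GAGGAA), the macrophage factor, the core of NFAT (GGAAA) or the AP-1 site (TGANTCA), of which the first and second can overlap.
Itga4: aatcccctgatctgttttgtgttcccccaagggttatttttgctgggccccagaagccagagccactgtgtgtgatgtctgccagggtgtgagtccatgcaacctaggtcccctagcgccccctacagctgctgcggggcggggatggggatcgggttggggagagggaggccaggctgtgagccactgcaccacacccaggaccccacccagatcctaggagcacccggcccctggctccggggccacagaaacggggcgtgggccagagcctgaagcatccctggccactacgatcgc
Itgax: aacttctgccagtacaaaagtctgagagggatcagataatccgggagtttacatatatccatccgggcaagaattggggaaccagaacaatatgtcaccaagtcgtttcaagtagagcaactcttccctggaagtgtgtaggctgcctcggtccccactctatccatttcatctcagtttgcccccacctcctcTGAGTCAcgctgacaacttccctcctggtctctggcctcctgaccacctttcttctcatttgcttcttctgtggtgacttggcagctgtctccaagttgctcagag
Itgb5: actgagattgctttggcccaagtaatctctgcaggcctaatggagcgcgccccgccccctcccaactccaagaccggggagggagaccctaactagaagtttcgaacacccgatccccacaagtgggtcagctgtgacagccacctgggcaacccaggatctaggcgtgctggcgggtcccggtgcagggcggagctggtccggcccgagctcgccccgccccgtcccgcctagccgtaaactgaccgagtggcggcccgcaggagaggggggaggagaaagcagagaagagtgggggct
Itgb7: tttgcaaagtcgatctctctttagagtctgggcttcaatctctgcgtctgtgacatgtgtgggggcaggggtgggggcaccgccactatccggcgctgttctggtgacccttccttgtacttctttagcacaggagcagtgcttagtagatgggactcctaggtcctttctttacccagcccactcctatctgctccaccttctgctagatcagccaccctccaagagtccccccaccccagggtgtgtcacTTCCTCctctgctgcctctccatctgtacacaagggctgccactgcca
The promoter of Itgax held 1 AP-1 match, 56 bases before the start, a site that 7.81% of all 32851 promoters hold. That of Itgb7 held 1 PU.1 match, which begins 3 bases into the transcript, and 28.3% of all promoters hold one. Neither Itga4 nor Itgb5 had any of these letters in this window, and an NFAT core was in none of the 4, whereas 61.3% of all promoters hold it. Itgb3, also called with RANKL, had no entry and was not examined. Among the members with an entry that were not called with RANKL, Itgam held 3 NFAT and 3 PU.1 matches. Itgb1 held 2 NFAT matches and 1 PU.1 match, and Itgav held 0 and 2. These are matches of letters, and binding was not measured.

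The make-up of the beta chains, as shares of the summed RPKM of Itgb1 to Itgb8, gives the same values on a common footing. Itgb2 held 47.4% and 48.8% in -R, 44.4% and 46.0% in +R, then 47.4% and 47.9% in R+LE, so it was the largest share throughout. Itgb1 came second, with 25.5% ± 0.254 in -R, 34.3% ± 0.984 in +R, then 31.3% ± 0.518 in R+LE (SD, n = 2 each). A share can rise without a rise in level, as the Itgb1 share did between -R and +R, because the sum fell from 426 ± 25.6 to 322 ± 40.3 RPKM. Itgb5 held 19.8% ± 0.557 in -R, 6.32% ± 0.0554 in +R, then 10.8% ± 0.558 in R+LE (SD, n = 2 each). Itgb3 held 0.0451% ± 0.00443, 10.3% ± 0.826 and 3.31% ± 0.235, and Itgb7 6.57% ± 0.697, 3.87% ± 0.635 and 6.88% ± 0.0409, in the same order. The order of the smaller shares was thus Itgb5, Itgb7, Itgb3 in -R and R+LE, and Itgb3, Itgb5, Itgb7 in +R. Shares are a description, since the smallest two-sided p that exact permutation allows between pairs of libraries is 0.333.

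Expressed as the part of the log2 change with RANKL that was absent with LE, the means of the 2 R+LE libraries were 22.0% for Itga4, 43.4% for Itgb5, 40.0% for Itgb2, 62.1% for Itgav, 67.2% for Itgax and 81.7% for Itgb7. For Itgal the value was 197%, since its level with LE passed beyond that of -R. Itgam, whose change with RANKL did not pass, stood at -62.9%, since R+LE lay further from -R than +R did. Itgb1 had almost no change with RANKL to divide by, and its R+LE libraries gave -274% and 350%. The value of Itgav rested on which library was taken, at 39.3% for R+LE replicate 1 and 84.8% for replicate 2, as did that of Itgb2, at 56.1% and 23.8%. In linear RPKM the means were 30.8% for Itga4, 27.5% for Itgb5, 35.7% for Itgb2, 67.0% for Itgav, 75.9% for Itgax, 75.6% for Itgb7, 243% for Itgal and -70.9% for Itgam. Both changes use the +R libraries, so these percentages inherit the error of +R and are given without a test.

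Among the alpha chains, Itgam held the largest share in every library, between 28.9% and 37.8%. Itgav held 15.6% ± 0.277 in -R, 25.1% ± 2.64 in +R, then 16.7% ± 2.65 in R+LE (SD, n = 2 each). Itga4 went from 4.49% to 11.1% and 8.32%, Itgal from 5.62% to 3.52% and 7.02%, and Itgax from 0.979% to 2.06% and 1.11%, each as the mean of 2 libraries. The ratio of Itgam to Itgal was 5.29 and 5.01 in -R, 9.39 and 9.94 in +R, then 4.93 and 5.58 in R+LE. It was higher in both +R libraries than in any of the other 4.

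**Figure D3:**
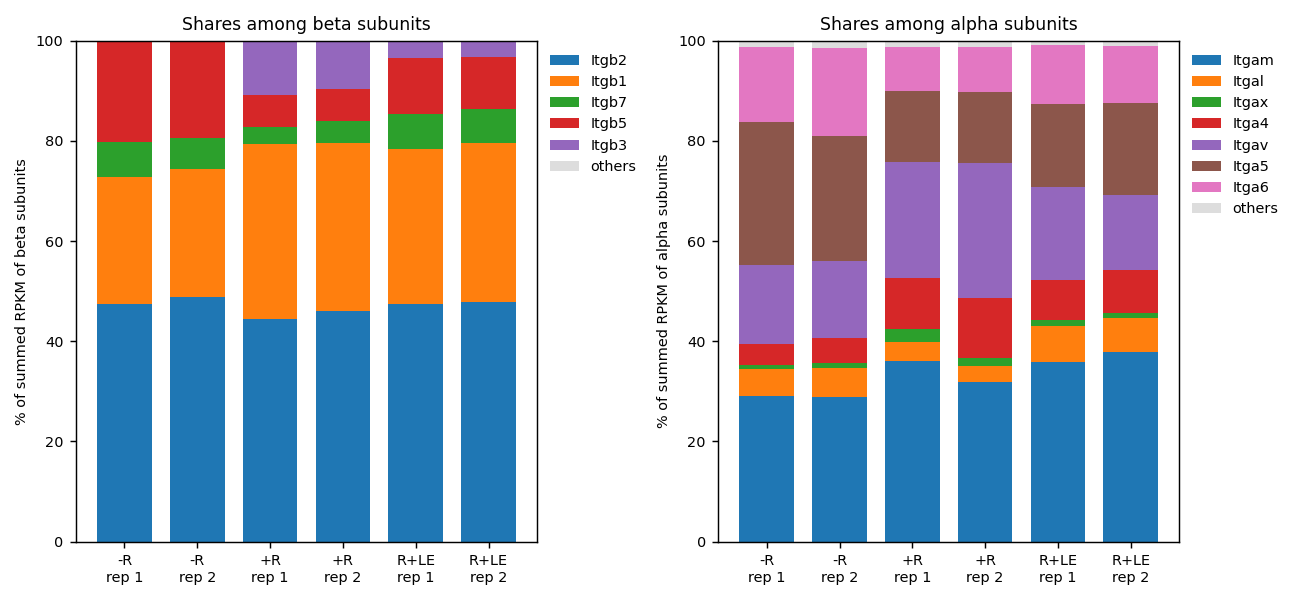
Share of each beta chain gene (left) and alpha chain gene (right) in the summed RPKM of its class (y axis, percent) in each of the 6 libraries (x axis). Itgb3 is visible in +R at 10.9% and 9.68% and in R+LE at 3.48% and 3.14%, and Itgb5 shrinks from 20.2% and 19.4% in -R to 6.28% and 6.36% in +R.

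The other integrin subunits place the members among their relatives. Of 16 further subunit genes, 12 lay below the filter, at 0 to 0.447 RPKM, and 4 were tested. Itga2, which encodes the α2 chain of a collagen receptor, was 0.0430 and 0.00800 RPKM in -R, 2.06 and 1.72 in +R, then 0.452 and 0.292 in R+LE. Like Itgb3, it was called higher with RANKL (log2 fold change 2.18, adjusted p = 1.6e-06) and lower with LE (-1.46, adjusted p = 0.000535), at a far lower level. Its -R values rested on 9 and 2 reads. Only its +R libraries lay above 0.5 RPKM, so it passed the filter through +R alone. Neither its call as higher with RANKL nor that as lower with LE was thus independent of the filter. The size of its log2 fold change over -R also depends on the pseudocount. Itga8, the α8 chain of an RGD-binding receptor, had the opposite course, from 2.26 and 2.37 RPKM in -R to 0.427 and 0.590 in +R, then 1.53 and 1.94 in R+LE, with log2 fold changes of -1.48 (adjusted p = 1.25e-05) and 1.15 (adjusted p = 0.000808). Itga5, the α5 chain of the fibronectin receptor, was 68.4 and 61.6, 39.2 and 35.5, and 47.6 and 51.4 RPKM in the 3 groups. Itga6, a laminin receptor chain, was 35.8 and 43.7, 24.8 and 22.4, and 33.5 and 31.9. Both fell with RANKL by less than 2-fold (log2 fold changes -0.79 and -0.74, adjusted p = 0.000352 and 0.000764), and neither passed with LE.

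Ligands and partners of these receptors were read from 2 lists. Of 15 ligand genes 9 were tested, and with RANKL 4 passed as higher and 5 as lower, against 23.9% and 21.5% of all tested genes, at a median log2 fold change of -0.47 beside 0.05 over all tested genes. Spp1, which encodes osteopontin, a ligand of αvβ3, was 673 and 762 RPKM in -R, 264 and 158 in +R, then 356 and 283 in R+LE, a log2 fold change of -1.81 with RANKL (adjusted p = 9.24e-06). With RANKL Itgb3 and Itgav, the genes of this receptor, thus rose where Spp1 fell within the same cultures, while Itgb5 fell too. Vtn, which encodes vitronectin, had no read in any library, so up to 3 reads per library remain possible. Mfge8, a bridge between αv integrins and dying cells, was called higher with RANKL (log2 fold change 1.62, adjusted p = 7.84e-07), and Thbs1, thrombospondin-1, was called lower (-1.84, adjusted p = 3.86e-07). Among ligands of β2 integrins, Icam1 rose from 13.9 and 13.9 RPKM to 41.6 and 37.9, C3 from 6.49 and 7.31 to 28.3 and 24.2, and Icam2 fell from 5.97 and 6.88 to 1.79 and 2.65, each called. With LE 2 of the 9 passed, both as higher (5.19% of all tested genes) and under 2-fold, namely Thbs1 (0.75, adjusted p = 0.00844) and F11r (0.81, adjusted p = 0.00365), which encodes the junctional adhesion molecule A.

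Of 20 activators and adaptors, which link the cytoplasmic tails of integrins to actin and signalling, 16 were tested. With RANKL 2 passed as higher and 4 as lower, where the shares of all tested genes were 23.9% and 21.5%, and 10 did not pass. Their median log2 fold change was 0.02, beside 0.05 over all tested genes. Vcl, which encodes vinculin, was called higher (log2 fold change 1.11, adjusted p = 1.29e-05). Called lower were Ptk2b (-1.53, adjusted p = 2.21e-07), which encodes the kinase Pyk2 of the adhesion zone, Apbb1ip (-1.07, adjusted p = 2.59e-05), the adaptor RIAM that brings talin to integrins, and Parvb (-1.11, adjusted p = 8.72e-06), β-parvin. Tln1 (talin) and Fermt3 (kindlin-3), the direct activators of β chains, had log2 fold changes of 0.07 and -0.28 and did not pass. With LE, Vcl fell by 0.70 on the log2 scale (adjusted p = 0.00374), Ptk2b rose by 0.61 (adjusted p = 0.00729) and Ptk2, the focal adhesion kinase, rose by 0.55 (adjusted p = 0.0151). None of the 16 was called with LE, a comparison in which 1.46% of all tested genes were called higher and 1.78% lower.

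**Figure D4:**
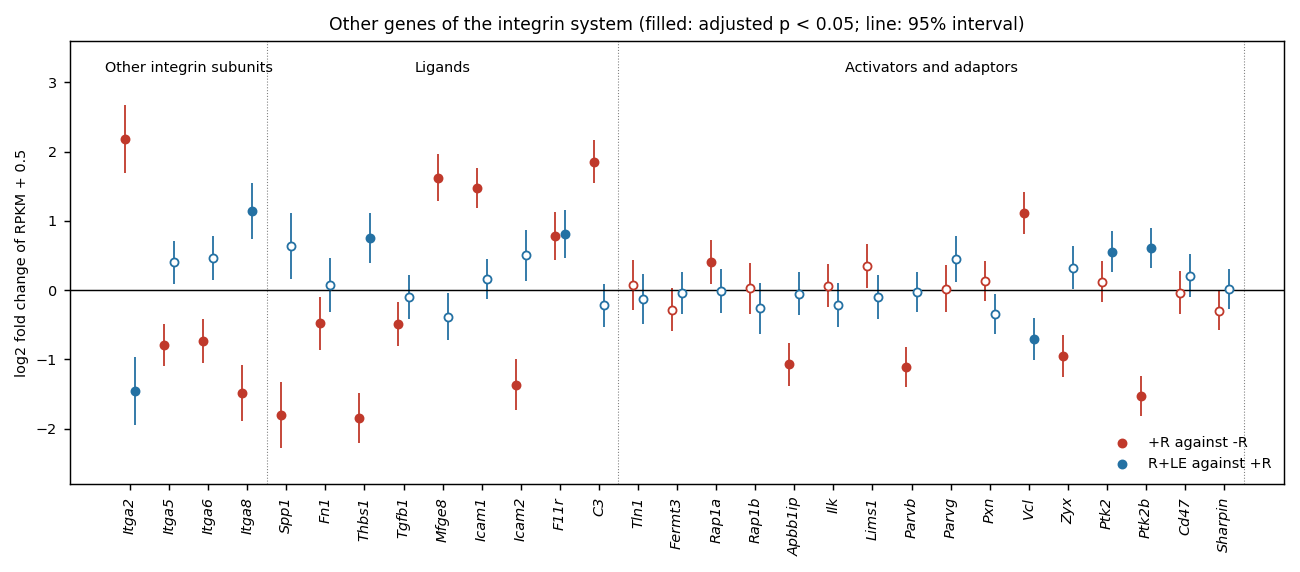
Log2 fold change of RPKM + 0.5 (y axis) for the tested genes of 3 lists (x axis), for +R against -R and for R+LE against +R. Dots are limma estimates, filled where the adjusted p is under 0.05, and lines are 95% intervals. With RANKL the dots run from -1.84 for Thbs1 to 2.18 for Itga2, and 10 of 16 activators and adaptors have open dots.

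The tested genes whose course was nearest to that of 3 beta chains were found by the root mean square difference in log2(RPKM + 0.5) over the 6 libraries, each gene taken relative to its own mean in -R. Nearest to Itgb3 were Slc9b2 (difference 0.26), a sodium and proton exchanger, Ocstamp (0.29), a membrane protein of osteoclast fusion, and Htra1 (0.46), a secreted protease. The -R means of Itgb3 and Ocstamp lay below the pseudocount of 0.5, so this ranking may depend on it. Slc9b2 went from 0.682 RPKM in -R to 72.2 in +R, then 17.0 in R+LE, and Ocstamp from 0.163 to 41.0 and 9.22, as means of 2 libraries. Both had a larger fall with LE, at -2.07 and -2.11 on the log2 scale, than the -1.47 of Itgb3, and Htra1 had a smaller one at -0.53, though these differences between genes were not tested. Nearest to Itgb5 were Ly9 (0.05), a receptor of the SLAM family, Trem2 (0.07), a phagocytic receptor, and Tnfrsf1b (0.09), a receptor of tumour necrosis factor. Trem2 had 209, 54.4 and 94.9 RPKM in -R, +R and R+LE, as means of 2 libraries. Nearest to Itgb2 were Ikbkg, Mafk and Sypl, each within 0.04, where differences are small because changes are small.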

How the data were processed

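The authors aligned paired-end reads to mm10 (TopHat in the study's methods, HISAT2 in the submitters' processing notes) and counted reads on the exons of 1 RefSeq transcript per gene with HOMER, on either strand. They deposited RPKM values, under column titles that say FPKM, and every column of values was used. Versions are not given in the sources used here.

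The smallest differences between RPKM values gave the worth of 1 read and so whole reads, within 0.25 of a read for 100% of the 5573 to 6043 values checked per library. A floor of 3 reads over 1 kb is 0.0861 to 0.102 RPKM and covers counting error only. limma version 3.58.1 in R version 4.3.3 was fitted to log2(RPKM + 0.5) of 11595 genes, those averaging 0.5 RPKM or more over the libraries, with group means of all 6 libraries, a variance trend and Benjamini-Hochberg adjustment. The scripts were tested on simulated data. Python 3.11.15, pandas 2.3.3 and matplotlib 3.10.9 made tables and figures. The members and lists were chosen with earlier results of these data known. Named are the 10 members, other subunits that passed, ligands, activators and adaptors called in any comparison, markers, and the 3 nearest genes of Itgb3, Itgb5 and Itgb2. Vtn, Itga2b, Ptk2, Tln1, Fermt3 and genes sharing exons were named after their values were seen. Pseudocounts, filters, scalings, voom on the recovered reads, a replicate block and left-out libraries served as alternatives. Exon overlap was read from GENCODE M21 on GRCm38. Counting noise did not account for the spread between replicates (chi-square 15.5 to 34.1 per gene).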

Additional observations from a re-analysis of the deposited data

How the results depend on the processing

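Over 30 log2 fold changes (10 members, 3 comparisons) and 17 alternatives, 461 of 510 values kept their direction and side of the threshold, 31 no longer passed, 9 newly passed and 9 changed sign. All sign changes were log2 fold changes of Itgb1, to -0.05 and -0.13 with RANKL (without -R replicate 1, without +R replicate 1), to 0.042 (median centring), 0.088 (quantile normalization), 0.15 (without +R replicate 1), 0.06 (without R+LE replicate 2) and 0.0059 (Rn45s left out of the depth, chosen after seeing the data) with LE, and to -0.058 and -0.056 for R+LE against -R (without -R replicate 1, without R+LE replicate 1). The changes of Itgb3 and Itgb5 passed in all comparisons under all 17. Without 1 library at a time Itgb1 ranged from -0.13 to 0.18 with RANKL, from -0.17 to 0.15 with LE and from -0.058 to 0.085 for R+LE against -R. Without 1 library at a time, the number of members called ranged from 4 to 5 with RANKL, 1 (without R+LE replicate 1) to 4 (without R+LE replicate 2) with LE and 2 to 3 for R+LE against -R, and that of all genes from 1798 to 1886, 367 to 442 and 1200 to 1272. The fall of Itgav with LE (adjusted p from 0.00463 to 0.21 over the alternatives) and that of Itgax (from 9.66e-05 to 0.499) did not pass under 9 and 10 of them, and Itgam passed with RANKL under 6. The log2 rise of Itgb3 with RANKL was 6.82 with a pseudocount of 0.1, 4.83 with 1 and 7.39 with voom. The replicate block kept the calls of members at 5, 2 and 3, with 1801, 389 and 1200 genes in all. Replicate numbers marked no known shared batch, and the differences between replicates correlated at -0.05 to 0.25 between groups. As few as 29 reads lay on Itgb3 in -R, and the size of its log2 fold change over -R moved with the pseudocount.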
